A study of Mus musculus with 4 samples.

Results

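Genes that carry dietary fat from the gut lumen into the circulation, and genes that burn fatty acids, were followed in mouse adenomas labelled Strap KO and Strap WT. They were taken by gene symbol: 38 members out of 17762 genes listed in at least 1 library, covering apolipoproteins, chylomicron assembly, fatty acid uptake, triglyceride synthesis, sterol transport, Ppar factors and beta-oxidation. All 38 were listed in every library, and all 38 passed the filter on low counts. In the enterocyte, the absorptive cell of the small intestine, fatty acids and monoglycerides from food are rebuilt into triglyceride. The triglyceride is loaded by microsomal transfer protein onto apolipoprotein B and leaves the cell as a chylomicron. The Ppar nuclear receptors sense fatty acids and switch on genes of fat uptake and oxidation, and this programme belongs to the small intestine more than to the colon.

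The animals were C57BL/6 mice aged 110 days. All carried ApcMin, an Apc mutation under which intestinal tumours form. Poly-A RNA from adenomas was sequenced in 2 libraries labelled ApcMin Strap KO (KO) and 2 libraries labelled ApcMin Strap WT (WT). The series' design text writes the KO genotype as StrapIEKO, without spelling out the cells in which Strap was removed or the part of the gene that was deleted. The labels do not say how many animals or adenomas a library holds, and p-values therefore measure the spread between these libraries. Strap itself stood at 7.4 and 10.01 FPKM in KO and 61.3 and 43.8 FPKM in WT, which left 16.9% of the WT level (log2 fold change -2.57, edgeR adjusted p = 0.0942, DESeq2 adjusted p = 8.42e-14). FPKM scales the fragments of a gene by transcript length and library size, so it can be compared between genes.

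Total expected counts were 15640931 and 14084814 in KO and 15422921 and 15255209 in WT. Genes of the colon were nearly silent in adenomas that the labels place there: of 7 colon markers, Hoxd12 was not listed, and the summed level of the others was 0.546 and 2.18 CPM (counts scaled to library size) in KO and 1.6 and 6.36 CPM in WT. Absorptive enterocyte genes, 12 in all, summed to 18161 and 25380 CPM in KO and 23359 and 17450 CPM in WT. Xist was found in both replicates 1 (197 CPM in KO and 968 CPM in WT) and was under 1 CPM in both replicates 2, where the Y-linked genes were found. Each genotype thus held 1 library of either pattern, and its 2 libraries did not come from the same animals.

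Fat absorption genes were among the most abundant transcripts of these adenomas, and the edgeR quasi-likelihood test called no member different between KO and WT. Strap, at 16.9% of the WT level, was not called by that test either (edgeR adjusted p = 0.0942). A member without a call can thus still differ. The 38 genes took 2.29% and 2.32% of all expected counts in KO, and 3.01% and 1.16% in WT. Their median level was 93.9 and 112 FPKM in KO and 110 and 74 FPKM in WT, against 8.99 and 9.94 FPKM in KO and 9.66 and 9.65 FPKM in WT over the 12769 genes tested. After Benjamini-Hochberg adjustment over all tested genes, edgeR called 0 members higher and 0 lower in KO. Over all genes it called 0.00783% higher and 0% lower. Its p before adjustment was below 0.05 for 4 members with higher levels (Apoc2, Slc27a4, Mogat2 and Soat2) and 0 with lower ones, against 7.08% and 8.69% of all genes. DESeq2 called 1 member higher, Slc27a4, and 0 lower, with 1.32% of 17741 genes called higher and 2.44% lower, and limma on log2(FPKM + 1) called 0.

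By fitted fold 21 members were higher in KO and 17 lower, where 50.3% of all genes were higher. A fold of at least 2 in either direction was reached by 8 members, against 13.5% of all genes. The median log2 fold change of KO over WT was 0.14, against 0.00 over all tested genes. The members' median became 0.68 without WT replicate 1 and -0.16 without WT replicate 2. The KO libraries both exceeded the WT libraries in 10 members and both lay below them in 4, while each of these orders held for 24.7% of all tested genes. On the CPM scale the counts were 10 and 3, against 25.5% and 24.6% of all genes. A lower level in bulk tissue can mean fewer cells of a type or less RNA per cell, and these cannot be told apart here.

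**Figure D1:**
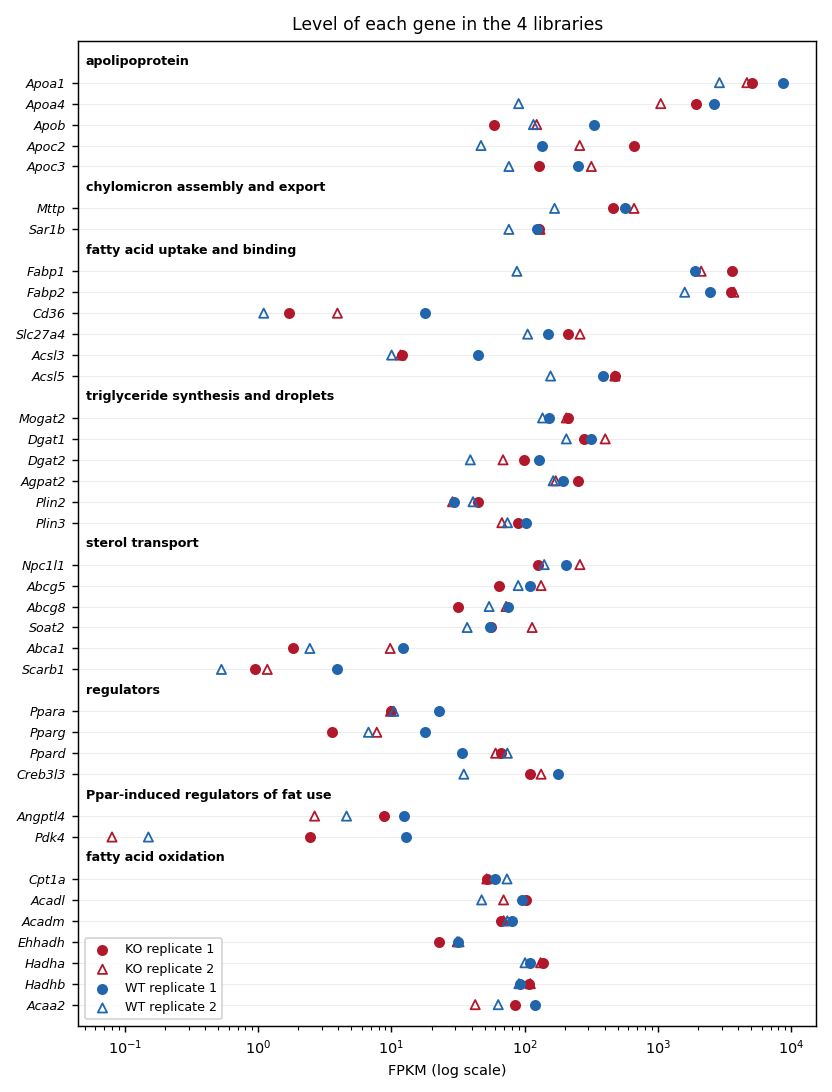
FPKM of the 38 genes, on a log axis, in each of the 4 libraries, grouped by role. Red marks KO and blue marks WT, with circles for replicate 1 and triangles for replicate 2. WT replicate 2, the open blue triangle, is the lowest library for 22 genes. For some of these, such as Apoa1 and Apoa4, both KO values lie between the WT values. For others, such as Fabp2 and Mogat2, both lie above them.

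Among the apolipoproteins, Apoc2 stood higher in both KO libraries and the others overlapped between genotypes. Apoc2 activates lipoprotein lipase, the enzyme that unloads triglyceride from chylomicrons in capillaries. It stood at 659 and 258 FPKM in KO and 134 and 46.9 FPKM in WT, with a mean of 459 ± 283 FPKM in KO and 90.3 ± 61.4 FPKM in WT (SD, n = 2 each). Both KO libraries were above both WT libraries, and the ratio was 4.93 between the 2 libraries with Xist and 5.51 between the 2 without it. Its log2 fold change was 2.53 (SE 0.70), the largest upward one among the members, and did not pass over all genes (edgeR adjusted p = 0.23, DESeq2 adjusted p = 0.143). With a term for the Xist pattern, which coincides with the replicate number, edgeR called Apoc2 higher (log2 fold change 2.51, adjusted p = 0.00999). It called 0.36% of all genes higher in that fit, and no other member. With the replicate numbers crossed, a fit added after seeing the data, edgeR called 0 members. That fit called 65 genes higher, against 46 with the term for the Xist pattern. When each library was left out in turn its log2 fold change stayed between 1.51 and 3.47. In the GENCODE M21 annotation, 79.5% of the exon bases of Apoc2 are shared with Gm44805 on the same strand, so reads there cannot be assigned to Apoc2 alone.

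Apoa1, the main protein of high-density lipoprotein, was the most abundant of all genes in WT replicate 1 and the second in KO replicate 2. By FPKM it ranked 12 in KO replicate 1 and 24 in WT replicate 2. It stood at 5031 and 4642 FPKM in KO and 8641 and 2889 FPKM in WT. Both KO values lay between the WT values, and the log2 fold change was -0.22 (SE 0.57, edgeR adjusted p = 0.88). Apoa4, which is secreted on chylomicrons and is known to follow fat intake, was at 1942 and 1048 FPKM in KO and 2641 and 90.0 FPKM in WT. The WT libraries were 29.4-fold apart and enclosed both KO libraries, with a log2 fold change of 0.19 (SE 1.28, edgeR adjusted p = 0.957). In GENCODE M21 34.8% of its exon bases overlap the antisense gene Gm10680, and strandedness of the counting is not known. Apoc3, an inhibitor of lipoprotein lipase, was at 128 and 316 FPKM in KO and 252 and 76.1 FPKM in WT. These levels overlapped (log2 fold change 0.43, edgeR adjusted p = 0.759).

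Apoa1, Apoc3 and Apoa4 are neighbours on mouse chromosome 9, between 46228630 and 46243458 in mm10. Within a library they did not keep a constant proportion. Apoa4 per Apoa1, as a ratio of FPKM, was 0.386 and 0.226 in KO and 0.306 and 0.0311 in WT, so it was low in WT replicate 2 only. Apoc3 per Apoa1 was 0.0254 and 0.068 in KO and 0.0291 and 0.0263 in WT, and was high in KO replicate 2 only. Apob, the structural protein of the chylomicron, had the lowest level in KO replicate 1. It was at 58.7 and 123 FPKM in KO and 329 and 116 FPKM in WT, with a log2 fold change of -1.29 (SE 0.59, edgeR adjusted p = 0.355). WT replicate 1 stood above the rest, and without it the log2 fold change was -0.36. Without KO replicate 1 the log2 fold change was -0.89. Hepatocytes also make these apolipoproteins. The 10 hepatocyte markers summed to 7.24 and 7.7 CPM in KO and 19.4 and 19.6 CPM in WT, Fgb and Fgg were not listed, and Alb was listed at 0 in both KO libraries, at 5.33 CPM in WT replicate 1 and at 0.0649 CPM in WT replicate 2.

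Promoter windows are shown for Apoa1 and Apoa4, which lie on either side of Apoc3 and differed in range. That of Apoc2, the member with the largest upward fold, is shown as well. Fabp1 and Fabp2, 2 binding proteins of 1 family that differed in range, complete the set. Each window runs from 250 bases before to 50 bases after the start site, 5′ to 3′ on the strand of the gene, from RefSeq in GRCm38.p6, the assembly also called mm10. The table held 30 of the 38 members, and Apoc3 was not among them. The windows are Apoa1 chr9:46228380-46228679 on the plus strand, Apoa4 chr9:46240594-46240893 on the plus strand, Apoc2 chr7:19677892-19678191 on the minus strand, Fabp1 chr6:71199629-71199928 on the plus strand and Fabp2 chr3:122894822-122895121 on the plus strand. Capitals mark matches, on either strand, to TATAAA, the core promoter box of that name, to AGGTCA, a half-site of nuclear receptors, to CAAAGTCCA, a motif of HNF4, to AGATAA, a motif of GATA factors, or to GTTAAT, a half-site of HNF1.
Apoa1: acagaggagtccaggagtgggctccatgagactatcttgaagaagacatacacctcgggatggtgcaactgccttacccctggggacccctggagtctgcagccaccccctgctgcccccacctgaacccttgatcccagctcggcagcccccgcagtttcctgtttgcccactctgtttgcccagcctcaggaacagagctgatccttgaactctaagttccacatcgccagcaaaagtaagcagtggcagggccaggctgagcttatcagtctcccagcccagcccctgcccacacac
Apoa4: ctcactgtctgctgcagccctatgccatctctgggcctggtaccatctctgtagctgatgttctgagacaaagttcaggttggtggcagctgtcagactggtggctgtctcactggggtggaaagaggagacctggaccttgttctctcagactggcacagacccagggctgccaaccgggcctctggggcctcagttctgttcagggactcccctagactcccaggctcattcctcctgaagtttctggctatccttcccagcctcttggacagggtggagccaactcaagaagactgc
Apoc2: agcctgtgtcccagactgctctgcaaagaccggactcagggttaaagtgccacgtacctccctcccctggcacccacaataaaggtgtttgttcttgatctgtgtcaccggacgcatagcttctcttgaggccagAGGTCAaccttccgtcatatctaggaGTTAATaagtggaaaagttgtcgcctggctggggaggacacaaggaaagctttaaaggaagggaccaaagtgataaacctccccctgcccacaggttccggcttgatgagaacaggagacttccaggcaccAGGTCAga
Fabp1: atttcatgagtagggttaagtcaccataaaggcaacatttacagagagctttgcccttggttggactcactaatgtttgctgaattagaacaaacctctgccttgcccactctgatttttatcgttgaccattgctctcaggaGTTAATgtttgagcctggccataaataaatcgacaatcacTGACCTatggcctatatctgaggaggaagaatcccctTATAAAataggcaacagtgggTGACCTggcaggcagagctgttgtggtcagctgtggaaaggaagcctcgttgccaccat
Fabp2: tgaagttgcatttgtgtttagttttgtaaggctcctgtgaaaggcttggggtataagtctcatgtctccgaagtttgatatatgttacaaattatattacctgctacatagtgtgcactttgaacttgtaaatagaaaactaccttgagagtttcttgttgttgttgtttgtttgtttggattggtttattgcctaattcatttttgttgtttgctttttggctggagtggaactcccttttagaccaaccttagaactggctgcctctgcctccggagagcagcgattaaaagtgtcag

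The Fabp1 window held TATAAA 30 bases before the start site, GTTAAT 107 bases before it and AGGTCA on the opposite strand at 67 and 9 bases before it, counted from the first base of each match. The Apoc2 window held AGGTCA 115 bases before and 42 bases after the start site, and GTTAAT 89 bases before it. None of these letters matched in the windows of Apoa1, Apoa4 and Fabp2. Among all 32851 windows in the table TATAAA was found in 13.6%, AGGTCA in 16.3%, CAAAGTCCA in 0.475%, AGATAA in 11.2% and GTTAAT in 7.1%. Among the 30 members they were found in 6, 9, 0, 4 and 4, in the same order. A match describes the letters and does not show that a factor binds.

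Both genes of chylomicron building and export had a higher mean in KO, without passing the test. Mttp encodes the large subunit of microsomal triglyceride transfer protein, which loads lipid onto apolipoprotein B. It stood at 460 and 661 FPKM in KO and 567 and 167 FPKM in WT, so KO replicate 1 lay between the WT libraries. The log2 fold change was 0.63 (SE 0.59, edgeR adjusted p = 0.63). Sar1b, the small GTPase of the vesicles that carry chylomicrons out of the endoplasmic reticulum, ranged from 76.0 FPKM in WT replicate 2 to 130 FPKM in KO replicate 2. The KO libraries were above the WT libraries in Sar1b (log2 fold change 0.40, edgeR adjusted p = 0.523). In GENCODE M21 7.36% of the exon bases of Mttp overlap Trmt10a on the opposite strand.

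**Figure D2:**
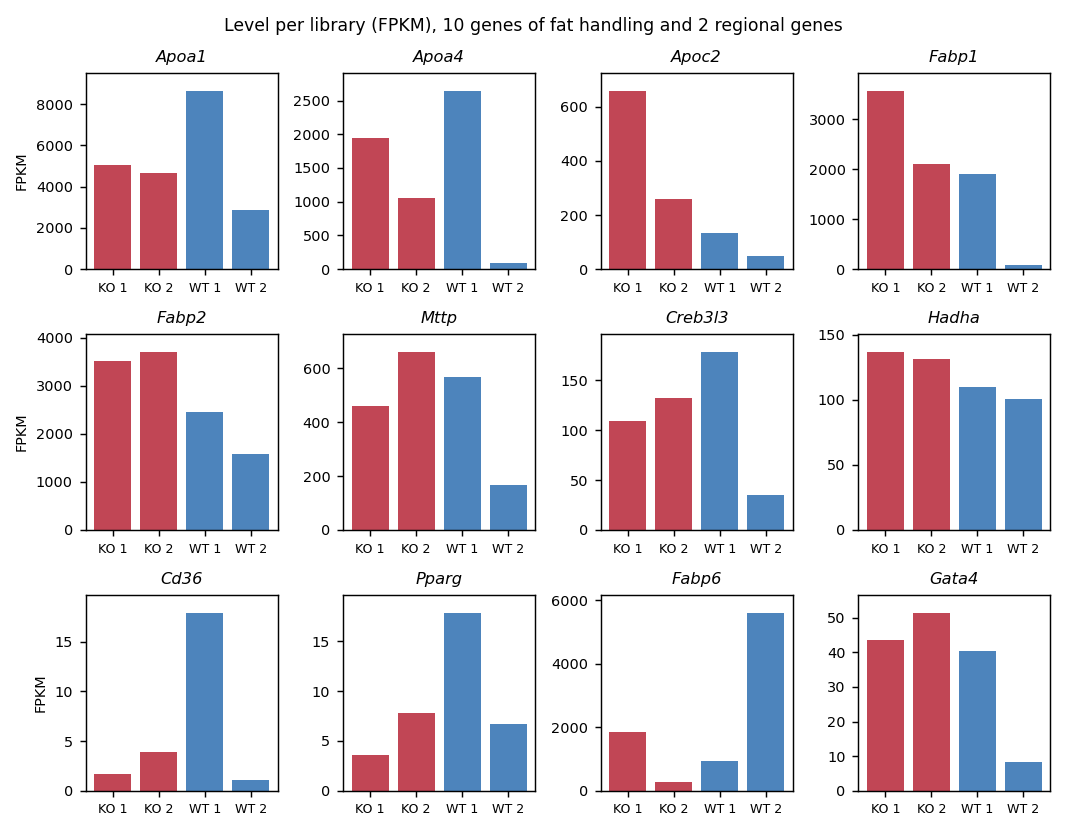
FPKM per library, from 0, for 10 genes of fat handling and for Fabp6 and Gata4, which mark the ileum and the proximal small intestine. Red bars are KO replicates 1 and 2 and blue bars WT replicates 1 and 2. Apoa4 and Fabp1 are low in WT replicate 2, where Fabp6 is high and Gata4 low, while Cd36 and Pparg are high in WT replicate 1. Not all genes of the proximal list follow Gata4. Slc40a1, not shown, was highest in WT replicate 2, and Cybrd1, not shown, was nearly equal in the WT libraries.

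Of the 6 genes of fatty acid uptake and binding 4 stood higher in both KO libraries than in both WT libraries. This order held for 10 of all 38 members and for 24.7% of all tested genes. Fabp1, the liver-type fatty acid-binding protein that is also made in the proximal gut, was at 3569 and 2107 FPKM in KO and 1907 and 87.3 FPKM in WT. KO replicate 2 was close to WT replicate 1, and WT replicate 2 stood far below the rest, 21.8-fold under WT replicate 1. The log2 fold change was 1.56 (SE 1.21, edgeR adjusted p = 0.56), and became 0.64 without WT replicate 2 and 5.08 without WT replicate 1. Fabp2, the intestinal fatty acid-binding protein, was at 3516 and 3703 FPKM in KO and 2461 and 1585 FPKM in WT. The KO libraries lay close together and above both WT libraries, with a log2 fold change of 0.87 (SE 0.36) that did not pass (edgeR adjusted p = 0.322, DESeq2 adjusted p = 0.0628). Fabp1 per Fabp2, as a ratio of FPKM, was 1.01 and 0.569 in KO and 0.775 and 0.0551 in WT, so WT replicate 2 alone was nearly without Fabp1 relative to Fabp2.

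Slc27a4 encodes the fatty acid transport protein FATP4, an acyl-CoA synthetase of the enterocyte. It was at 212 and 260 FPKM in KO and 151 and 105 FPKM in WT, with a mean of 236 ± 33.9 FPKM in KO and 128 ± 32.2 FPKM in WT (SD, n = 2 each). The groups did not overlap, and DESeq2 called it higher in KO (adjusted p = 0.0293) while edgeR did not (log2 fold change 0.91, SE 0.30, adjusted p = 0.268). Acsl5, which activates long-chain fatty acids for triglyceride synthesis, ranged from 156 FPKM in WT replicate 2 to 479 FPKM in KO replicate 1, with both KO libraries above both WT libraries (log2 fold change 0.85, edgeR adjusted p = 0.426). In Acsl5 8.31% of the exon bases overlap Zdhhc6 on the opposite strand.

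The other 2 uptake genes were high in 1 WT library. Cd36, a fatty acid receptor of enterocytes, endothelium, macrophages and adipocytes, was low throughout, at 1.7 and 3.93 FPKM in KO and 17.9 and 1.1 FPKM in WT. Acsl3, an acyl-CoA synthetase of lipid droplets, was at 11.9 and 11.7 FPKM in KO and 44.4 and 10.03 FPKM in WT. In both genes WT replicate 1 stood apart, and WT replicate 2 lay below both KO libraries. The log2 fold changes were -1.75 (SE 1.13, edgeR adjusted p = 0.49) for Cd36 and -1.19 (SE 0.64, edgeR adjusted p = 0.418) for Acsl3. Without WT replicate 2 edgeR called both lower (adjusted p = 0.0259 and 0.0194), as it did 2.21% of all genes tested there. Without WT replicate 1 the log2 fold changes turned to 1.35 and 0.24. In GENCODE M21 5.6% of the exon bases of Acsl3 are shared with Utp14b on the same strand.

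Several defining markers of the other cells that make Cd36 were at or near 0, and others were not. Among 9 adipocyte markers Adipoq, Plin1, Lep and Retn were not listed, Fabp4 was at most 0.192 CPM, and the sum, 94.1 and 90.8 CPM in KO and 99.4 and 55.5 CPM in WT, came from Cidec and Lipe. Cidec was highest in WT replicate 1 at 41.1 CPM, and Lipe in KO replicate 2 at 73.6 CPM. The 9 macrophage markers summed to 4.64 and 8.04 CPM in KO and 16 and 8.05 CPM in WT. Of 8 endothelial markers Gpihbp1 was not listed, and the sum was 2.19 and 2.59 CPM in KO and 42.6 and 4.41 CPM in WT. WT replicate 1, the library in which Cd36 stood apart, owed 35.6 CPM of this to Cdh5, with Pecam1 at 0.513 CPM. The part of these cells in the level of Cd36 was not tested.

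Of the 6 triglyceride synthesis and droplet genes 5 had a higher fitted level in KO and 1 a lower one, with log2 fold changes from -0.13 to 0.57. Mogat2, the enzyme that starts the re-esterification of absorbed monoglyceride, was at 209 and 205 FPKM in KO and 151 and 136 FPKM in WT. Replicates were within 1.11-fold of each other, the groups did not overlap, and the log2 fold change was 0.57 (SE 0.23, edgeR adjusted p = 0.314). Dgat1, which makes most enterocyte triglyceride, was at 276 and 402 FPKM in KO and 314 and 205 FPKM in WT, and Dgat2, its companion in the endoplasmic reticulum, at 99.2 and 68.7 FPKM in KO and 128 and 39.1 FPKM in WT. Both overlapped between genotypes (log2 fold changes 0.40 and 0.06, edgeR adjusted p = 0.562 and 0.971). Agpat2, an acyltransferase of phosphatidic acid synthesis, lay between 163 and 249 FPKM and also overlapped. The lipid droplet coat gene Plin2, a Ppar target, stood at 44.4 and 28.7 FPKM in KO and 29.7 and 41.0 FPKM in WT, with no order by genotype (log2 fold change 0.10, edgeR adjusted p = 0.901). Plin3, a second droplet coat gene, ranged from 67.3 to 102 FPKM with a log2 fold change of -0.13.

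For 3 of the 6 sterol transport genes the KO libraries lay on either side of the WT libraries or near their edges. Npc1l1, the cholesterol importer of the brush border, stood at 126 and 259 FPKM in KO and 204 and 140 FPKM in WT. Abcg5 and Abcg8, whose products pair to pump sterols back into the lumen, followed the same order among KO libraries. Abcg5 was at 63.6 and 133 FPKM in KO and 110 and 89.3 FPKM in WT. Abcg8 was at 31.7 and 72.6 FPKM in KO and 74.6 and 54.0 FPKM in WT. KO replicate 1 was the lowest library for all 3 genes, and KO replicate 2 was at least 2-fold above it. Their log2 fold changes were 0.17, -0.02 and -0.30, with edgeR adjusted p between 0.733 and 0.983. Abcg5 per Abcg8, as a ratio of FPKM, stayed between 1.48 and 2.01 in the 4 libraries. The pair lies head to head on chromosome 17 and shares 82 exon bases in GENCODE M21, which could hold reads of either.

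Soat2, which esterifies cholesterol for chylomicrons, ranged from 37.0 FPKM in WT replicate 2 to 114 FPKM in KO replicate 2, and KO replicate 1 exceeded WT replicate 1 by a ratio of 1.03 (log2 fold change 0.90, SE 0.35, edgeR adjusted p = 0.307). Abca1, which exports cholesterol to apolipoprotein A1, was at 1.82 and 9.78 FPKM in KO and 12.2 and 2.44 FPKM in WT. It was high in 1 library of each genotype (log2 fold change -0.36, edgeR adjusted p = 0.875). Scarb1, the high-density lipoprotein receptor, was at 0.95 and 1.17 FPKM in KO and 3.87 and 0.53 FPKM in WT. WT replicate 1 alone stood apart (log2 fold change -1.03, SE 0.90, edgeR adjusted p = 0.608), and without it the log2 fold change was 1.0.

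The 3 Ppar genes had different patterns. Ppara, the receptor that drives fatty acid oxidation, was at 9.86 and 9.84 FPKM in KO and 22.7 and 10.4 FPKM in WT. KO lay below WT, but WT replicate 2 was close to KO, and on the CPM scale the groups overlapped (log2 fold change -0.70, SE 0.38, edgeR adjusted p = 0.418). Pparg, the receptor of fat storage that is also active in colon epithelium, was at 3.57 and 7.76 FPKM in KO and 17.9 and 6.72 FPKM in WT. WT replicate 1 was highest and the other libraries overlapped (log2 fold change -1.10, SE 0.55, edgeR adjusted p = 0.39). Ppard was the most abundant of the 3 at 66.4 and 60.4 FPKM in KO and 33.8 and 74.0 FPKM in WT. It was lowest in WT replicate 1 (log2 fold change 0.27, edgeR adjusted p = 0.759), the library in which the other 2 were highest. Creb3l3 encodes a membrane-bound transcription factor known to activate apolipoprotein genes, Apoa4 among them. It was at 109 and 133 FPKM in KO and 179 and 34.9 FPKM in WT (log2 fold change 0.21, SE 0.69, edgeR adjusted p = 0.909). Its KO levels lay between the WT levels. The same held for Apoa4, Apoa1, Dgat2, Cd36, Acsl3 and Scarb1, and for Ppard with the WT libraries in the reverse order. It did not hold for Apoc3. A link between Creb3l3 and these genes was not tested.

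Angptl4 and Pdk4, 2 classical Ppar target genes, were low and varied more between replicates than between genotypes. Angptl4, a secreted inhibitor of lipoprotein lipase, was at 8.73 and 2.65 FPKM in KO and 12.4 and 4.6 FPKM in WT (log2 fold change -0.50, SE 0.72, edgeR adjusted p = 0.762). Pdk4, the kinase that shuts pyruvate dehydrogenase when fat is burned, was at 2.46 and 0.08 FPKM in KO and 12.9 and 0.15 FPKM in WT. These rest on 131 and 4 expected counts in KO and 675 and 8 in WT. Both genes were higher in replicate 1 than in replicate 2 of either genotype, by up to 85.8-fold for Pdk4 in WT. The log2 fold change of Pdk4 was -2.25 (SE 1.89, edgeR adjusted p = 0.588) and ran from -6.27 to 3.11 when single libraries were left out.

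**Figure D3:**
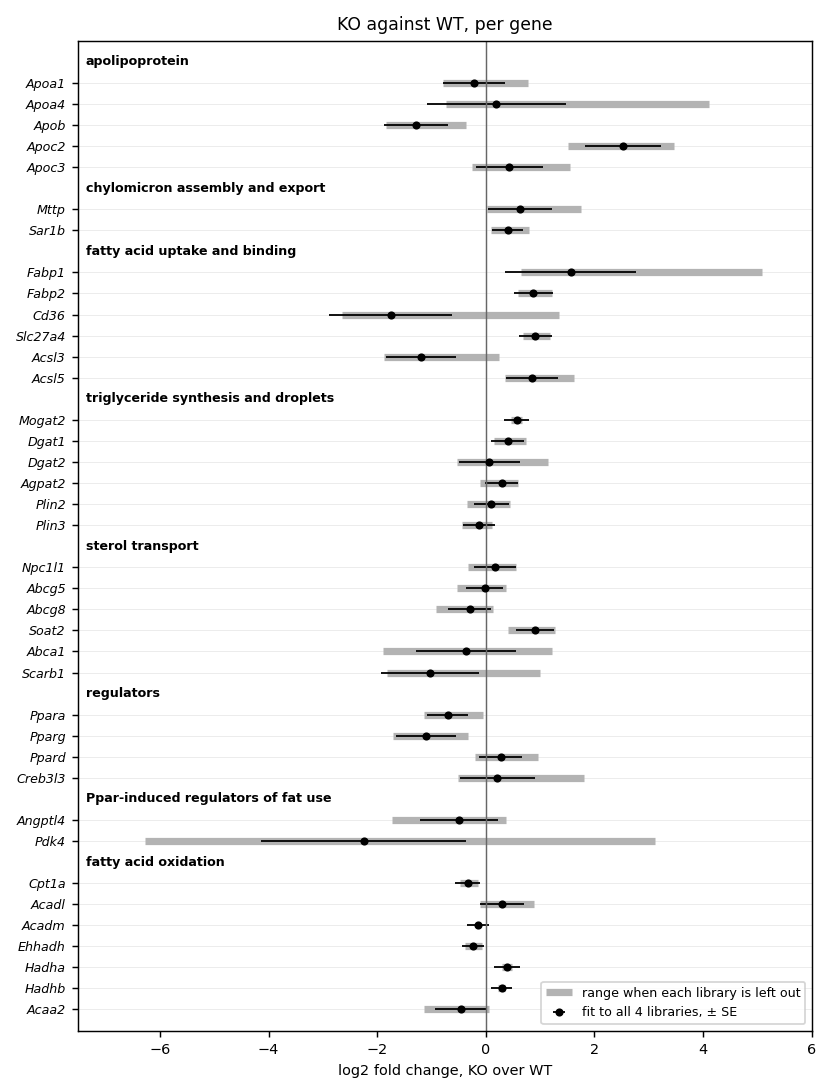
Log2 fold change of KO over WT from edgeR for each gene, by role. Black points and lines give the fit to all 4 libraries with its SE, and grey bars the range when each library was left out in turn. The bars of 20 genes cross 0, among them Apoa1, Apoa4 and Cd36, while those of Apoc2, Fabp2, Slc27a4, Mogat2, Hadha and Hadhb stay above it.

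Among the beta-oxidation genes, the highest library over the lowest lay between 1.21 for Acadm and 2.81 for Acaa2. Hadha and Hadhb encode the subunits of the mitochondrial trifunctional protein, which carries out the last steps on long-chain fatty acids. Hadha was at 137 and 132 FPKM in KO and 110 and 100 FPKM in WT, and Hadhb at 107 and 110 FPKM in KO and 91.6 and 90.5 FPKM in WT. In both genes the KO libraries lay above the WT libraries and replicates differed by less than the genotypes. The log2 fold changes were 0.39 (SE 0.24) and 0.29 (SE 0.20), and neither passed (edgeR adjusted p = 0.472 and 0.524, DESeq2 adjusted p = 0.426 and 0.601).

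Cpt1a, Acadm and Ehhadh pointed the other way, with both KO libraries below both WT libraries. Cpt1a, the carnitine transferase that admits fatty acids to mitochondria, was at 51.8 and 51.9 FPKM in KO and 59.9 and 73.6 FPKM in WT (log2 fold change -0.33, SE 0.23, edgeR adjusted p = 0.519). Acadm, the medium-chain dehydrogenase, was at 66.8 and 69.4 FPKM in KO and 80.5 and 74.0 FPKM in WT (log2 fold change -0.15, SE 0.20, edgeR adjusted p = 0.74). Ehhadh, a bifunctional enzyme of peroxisomal oxidation, was at 22.6 and 31.2 FPKM in KO and 31.8 and 32.1 FPKM in WT, so only KO replicate 1 was clearly lower (log2 fold change -0.23, edgeR adjusted p = 0.618). Acadl, the long-chain dehydrogenase, was at 102 and 69.3 FPKM in KO and 96.0 and 47.5 FPKM in WT and overlapped (log2 fold change 0.30, edgeR adjusted p = 0.744). Acaa2, the mitochondrial thiolase, ranged from 42.5 FPKM in KO replicate 2 to 119 FPKM in WT replicate 1 and overlapped as well.

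The WT libraries differed from each other in 1 direction for most of the 38 genes. WT replicate 1 exceeded WT replicate 2 in 34 members, against 49.2% of all tested genes, and did so at least 2-fold in 19, against 8.18%. The exceptions were Plin2, Ppard, Cpt1a and Ehhadh, with Ppard the 1 member at least 2-fold lower in WT replicate 1, against 6.11% of all genes. WT replicate 2 was the lowest of the 4 libraries in 22 members, against 19.8% of all genes, and WT replicate 1 the highest in 17, against 28.9%. In 28 members the WT libraries were further apart on the log2 scale than the mean of KO was from the mean of WT, which held for 46% of all genes. Between the KO libraries 13 members were at least 2-fold apart, against 12.7% of all genes.

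**Figure D4:**
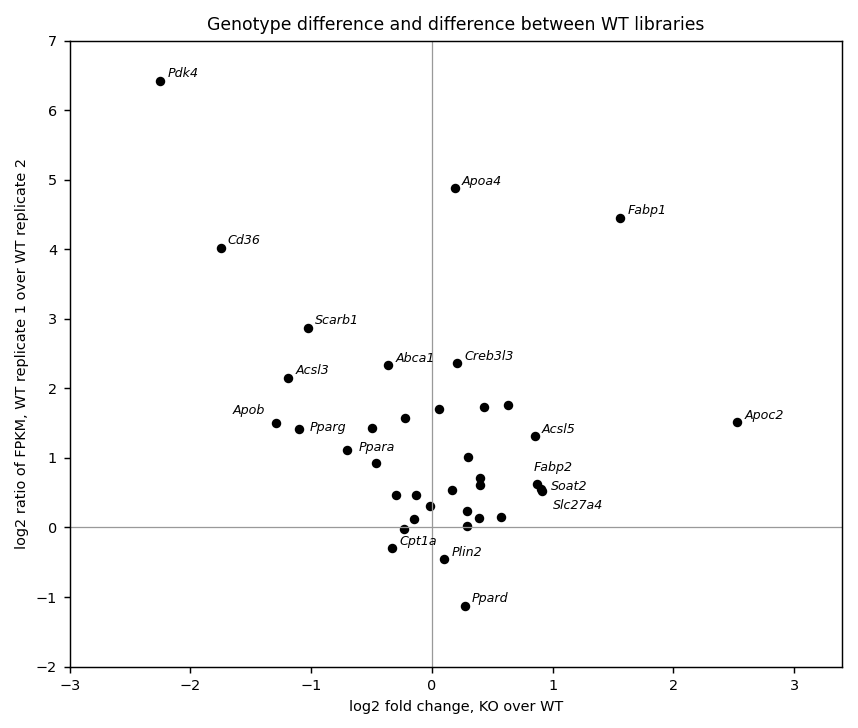
Each point is 1 of the 38 genes, with the log2 fold change of KO over WT on the x axis and the log2 ratio of FPKM in WT replicate 1 over WT replicate 2 on the y axis. The WT libraries enter both axes, so the axes are not independent. All but 4 points lie above 0 on the y axis, with Pdk4, Apoa4, Fabp1 and Cd36 at the top.

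Markers of gut region also differed between the WT libraries. WT replicate 2 exceeded WT replicate 1 in 6 of 6 ileal genes, and their sum was 1531 and 539 CPM in KO and 1060 and 4028 CPM in WT. Fabp6, the bile acid-binding protein of the ileum and a relative of Fabp1 and Fabp2, was at 1860 and 279 FPKM in KO and 952 and 5605 FPKM in WT. The 5 genes of the proximal small intestine summed to 483 and 460 CPM in KO and 376 and 172 CPM in WT, most of it from Gata4 and Adh6a, while Slc40a1, Slc11a2 and Cybrd1 had lower fitted levels in KO. WT replicate 1 exceeded WT replicate 2 in 4 of these 5 genes, by little in Cybrd1, and Slc40a1 was highest in WT replicate 2, at 22.8 and 1.5 CPM in KO and 14.1 and 58.6 CPM in WT. Gata4, a transcription factor of that region, was at 43.5 and 51.4 FPKM in KO and 40.4 and 8.25 FPKM in WT. WT replicate 2 thus had the highest summed ileal and the lowest summed proximal levels of the 4 libraries together with the lowest Apoa4 and Fabp1. Between the KO libraries the order differed, as KO replicate 1 had the higher ileal and proximal sums and also the higher Apoa4 and Fabp1. Paneth cell genes summed to 12900 and 8051 CPM in KO and 10302 and 27885 CPM in WT, and goblet cell genes to 9324 and 9569 CPM in KO and 5903 and 16503 CPM in WT, both highest in WT replicate 2. T and NK cell genes summed to 30.5 and 276 CPM in KO and 50.4 and 35.5 CPM in WT, highest in KO replicate 2. The part of gut region and cell mixture in the levels of the fat genes was not tested. Of the 12 absorptive enterocyte genes 8 were higher in WT replicate 1 than in the other WT library. Lactase (Lct) was at 103 and 155 FPKM in KO and 85.2 and 26.2 FPKM in WT, lowest in WT replicate 2, while the aminopeptidase Anpep was at 1621 and 1982 FPKM in KO and 1838 and 1822 FPKM in WT.

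Other genes of the same pathways gave no calls in edgeR either. Of 36 further genes of fat uptake and esterification 31 were tested, with 11 higher and 20 lower in KO, a median log2 fold change of -0.19 and 0 called. Unadjusted p-values below 0.05 were found for 3 of the higher and 2 of the lower genes, and DESeq2 called 2 lower. The first was Mgll, the monoglyceride lipase, at 0.13 and 0.14 FPKM in KO and 1.41 and 2.86 FPKM in WT, with a log2 fold change of -4.00 (SE 0.63, edgeR adjusted p = 0.125, DESeq2 adjusted p = 2.2e-05). The second was Acsl4, an acyl-CoA synthetase with a preference for arachidonate, at 0.62 and 0.33 FPKM in KO and 4.19 and 1.02 FPKM in WT (log2 fold change -2.40, edgeR adjusted p = 0.268, DESeq2 adjusted p = 0.0423). In both genes the KO libraries lay below the WT libraries at low levels. Tm6sf2, which takes part in lipid loading of lipoproteins, and Gpat3, a glycerol-phosphate acyltransferase, had log2 fold changes of 0.68 and 0.69 (edgeR adjusted p = 0.261 and 0.241).

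Of 30 further genes of beta-oxidation and ketone synthesis 18 were higher and 12 lower in KO, with a median log2 fold change of 0.10, 0 called by either edgeR or DESeq2, and unadjusted p-values below 0.05 for 1 higher and 2 lower genes. Among those with the smallest p were the peroxisomal thiolase Acaa1b (log2 fold change -1.72), the branched-chain dehydrogenase Acadsb (-0.98) and the very-long-chain dehydrogenase Acadvl (0.57), with edgeR adjusted p between 0.271 and 0.327. Of 22 partners and other targets of the Ppar receptors 19 were tested and 0 called by edgeR. Their median log2 fold change was -0.03, from 8 positive and 11 negative values, of which 1 and 2 had unadjusted p-values below 0.05. DESeq2 called Nr1h3 higher, the liver X receptor that senses oxysterols, which was at 45.7 and 33.7 FPKM in KO and 20.3 and 20.1 FPKM in WT (log2 fold change 1.01, SE 0.25, edgeR adjusted p = 0.211, DESeq2 adjusted p = 0.0438). DESeq2 called Txnip lower, which encodes a thioredoxin-binding protein that responds to glucose, at 111 and 94.9 FPKM in KO and 194 and 173 FPKM in WT (log2 fold change -0.79, edgeR adjusted p = 0.269, DESeq2 adjusted p = 0.0495). The bile acid receptor Nr1h4, also on the ileal list, had a log2 fold change of -0.86 and Nr1h2, the second liver X receptor, 0.41 (edgeR adjusted p = 0.296 and 0.363). Hnf4a, a nuclear receptor that controls many apolipoprotein genes, stayed between 252 and 293 FPKM in the 4 libraries.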

How the data were processed

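Paired-end sequencing of poly-A RNA from 4 adenoma libraries used a BGISEQ-500, per the labels' protocols. Tools named in the submitters' processing notes are RSEM 1.2.12 and Bowtie2 2.2.5, with mm10 as the build, without roles or order. Per the file headers, the deposited tables give RSEM expected counts and FPKM per gene. They hold no value under 0.01 FPKM, and a gene absent from a table is taken as not listed or, in sums, as 0. Whether counting used strand is not stated in the labels.

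Tables were joined on Entrez identifiers with pandas 2.3.3 (17762 genes, 17721 of them in RefSeq for GRCm38.p6), leaving out 1 row without a gene per library, with at most 0.000233% of counts. Expected counts were rounded and tested in R 4.3.3 with edgeR 4.0.16 (quasi-likelihood test, TMM factors of 0.937 to 1.043, filterByExpr, 12769 genes, genotype as the only term), with Benjamini-Hochberg adjustment over all genes and a threshold of 0.05. The fit had 2 residual degrees of freedom and a biological coefficient of variation of 32.5%. SEs follow from the F statistic. CPM values carry TMM factors and FPKM values do not. Replicates differed beyond counting noise (chi-square per degree of freedom 62.2 in KO and 124 in WT). Alternatives used DESeq2 1.42.0 and limma 3.58.1 (log2(FPKM + 1), at least 0.1 FPKM in 2 libraries). DESeq2 adjusted p values it gives as missing were left so. Fold changes from limma are on the log2(value + pseudocount) scale. Ratios of FPKM printed between libraries or genes carry no pseudocount. Members, lists and the naming rule were chosen with earlier results of these data known. By that rule 32 members get values per library and 6 their range; other lists give up to 4 genes of smallest p, of which 1 is not reported here, and further genes named were chosen after their values were seen. Protein sequences were not used here.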

Additional observations from a re-analysis of the deposited data

How the results depend on the processing

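With 2 libraries per genotype, 1 library can decide a value. Over all genes edgeR called 1 higher and 0 lower. With library size alone, and with limma on FPKM in all 3 forms, 0 were called higher. Without the filter on low counts 19 were called higher and 8 lower, and in DESeq2 235 and 432. Leaving out each library in turn gave 0 to 72 higher and 0 to 300 lower, the most without WT replicate 2. A fit that leaves out a library has 1 sample in a group, which is assumed to vary like the other group. With the replicate number as a block 46 were called higher and 70 lower, and with the numbers crossed, a fit added after seeing the data, 65 and 99. The labels do not say that equal numbers share an animal or day, and deviations of same-numbered libraries correlated at -0.12 across genes, so the replicate block was not taken as a pairing. The number coincides with the Xist and Y pattern in both genotypes.

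Among the 38 members, 0 were called in the main comparison. DESeq2 called 1 higher (Slc27a4), the replicate block 1 higher (Apoc2, adjusted p = 0.00999), the crossed block 0, and the fit without WT replicate 2 called 2 lower (Cd36 and Acsl3), so that leaving out a library gave 0 to 0 higher and 0 to 2 lower. The median log2 fold change of the members lay between -0.16 and 0.68 when a library was left out. Another scaling, filter or tool, and the block, turned the direction of 0 members. Leaving out a library turned 20 of 38, with log2 fold changes of Apoa1 -0.78 to 0.77, Apoa4 -0.74 to 4.10, Apoc3 -0.25 to 1.54, Cd36 -2.64 to 1.35, Acsl3 -1.88 to 0.24, Dgat2 -0.54 to 1.14, Agpat2 -0.10 to 0.60, Plin2 -0.34 to 0.44, Plin3 -0.43 to 0.12, Npc1l1 -0.33 to 0.56, Abcg5 -0.54 to 0.37, Abcg8 -0.91 to 0.14, Abca1 -1.89 to 1.21, Scarb1 -1.82 to 1.0, Ppard -0.20 to 0.96, Creb3l3 -0.52 to 1.81, Angptl4 -1.72 to 0.37, Pdk4 -6.27 to 3.11, Acadl -0.10 to 0.88 and Acaa2 -1.14 to 0.06. The median over all genes moved by at most 0.07 in any setting.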
